A study of Bos taurus with 38 samples.

Results

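MYH3 and MYH8, the 2 genes chosen by name for this report among the 27607 genes of the count table, encode the embryonic and the perinatal myosin heavy chain of skeletal muscle. The study's supplementary tables pair them with ENSBTAG00000011803 and ENSBTAG00000009702. Both genes passed the filter on low counts, which left 12964 genes. Their RNA was measured by poly-A RNA-seq in biopsies of the Longissimus dorsi (LD), the large back muscle, of 38 newborn calves, taken between 12 and 48 h after birth. All dams were Angus or Angus-cross cows aged 5 to 9 years, and all of them, controls included, had access to a mineral supplement with 120 mg/kg Se from Na selenite. The dams of the 10 CTR calves received no Se-yeast boluses. The dams of the 9 TR1, 10 TR2 and 9 TR3 calves received in addition boluses of Se-yeast, equal to 105 mg Se per week for 13 weeks, in the first (TR1), second (TR2) or last (TR3) trimester of gestation.

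Myosin heavy chains are the motor proteins of the thick filament, and each isoform comes from its own gene. MYH3 and MYH8 are the developmental isoforms: a fibre makes them while it forms, and around birth they give way to the adult fast isoforms (MYH2, type IIa; MYH1, type IIx; MYH4, type IIb) or to the slow isoform. They return when adult muscle regenerates. In the ARS-UCD2.0 RefSeq annotation, MYH8, MYH4, MYH1, MYH2 and MYH3 lie in that order in 1 cluster on chromosome 19, with MYH13 just before MYH8.

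The calf labels, used here, give 14 females and 24 males; the series' design text gives other sex counts for some groups. CTR had 4 females among 10 calves, TR1 had 2 among 9, TR2 had 3 among 10 and TR3 had 5 among 9. No CTR calf had a dam of 5 years and no TR3 calf a dam of 9 years. Libraries held 12921223 to 17471666 gene counts (median 14121365.5). Levels are given as CPM, counts per 1000000 counts of the library after TMM scaling, a correction for differences in library makeup. The factors ran from 0.887 to 1.35, the highest being that of TR1 calf A2052. The 5 muscle fibre markers (ACTA1, CKM, DES, MYLPF and MB) summed to 30810 to 106536 CPM per calf, and none was at 0. The lowest sum was again that of A2052. By group, the median sum was 83212 CPM in CTR, 64206 CPM in TR1, 76467 CPM in TR2 and 76728 CPM in TR3. The summed markers of other cells ranged over 163 to 814 CPM for fibroblast, 65.3 to 467 CPM for smooth muscle, 23.3 to 69.4 CPM for endothelium, 17.7 to 271 CPM for leukocyte, 6.11 to 452 CPM for erythroid and 0.672 to 16.2 CPM for fat cell markers. ADIPOQ, the defining fat cell marker, was at 0 in at least 1 calf.

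MYH3 was detected in every calf, over a very wide range. Its count ran from 45 to 7722, and its level from 3.01 CPM in CTR calf A2034 to 551 CPM in CTR calf A2098, a 183-fold span. Across all 38 calves the median was 75.1 CPM. MYH8 was also detected in every calf, with counts of 16 to 1641. Its level ran from 1.11 CPM in TR2 calf A2083 (95% exact Poisson interval 0.634 to 1.80 CPM, counting error only) to 130 CPM in TR2 calf A2023, a 117-fold span, and the median was 12.7 CPM. The levels of the 2 genes are not ranked against each other here, since no transcript length was used.

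These spreads were far beyond counting error. The counting error of a calf's value had a median of 3.04% for MYH3 and 7.51% for MYH8. The SD of log2 CPM over the 38 calves was 2.08 for MYH3, which placed it 14th of 12964 genes, and 1.37 for MYH8, which placed it 116th. The median gene had an SD of 0.37. The biological coefficient of variation, edgeR's estimate of the spread between calves beyond counting after the covariates, was 1.06 for MYH3 (73rd) and 0.809 for MYH8 (216th), against 0.247 for the median gene. Membership of a treatment group accounted for 3.18% of the variance of log2 CPM for MYH3 and 2.49% for MYH8, while the median gene had 6.93%. Nearly all of the spread of both genes therefore lay between calves of the same group.

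**Figure D1:**
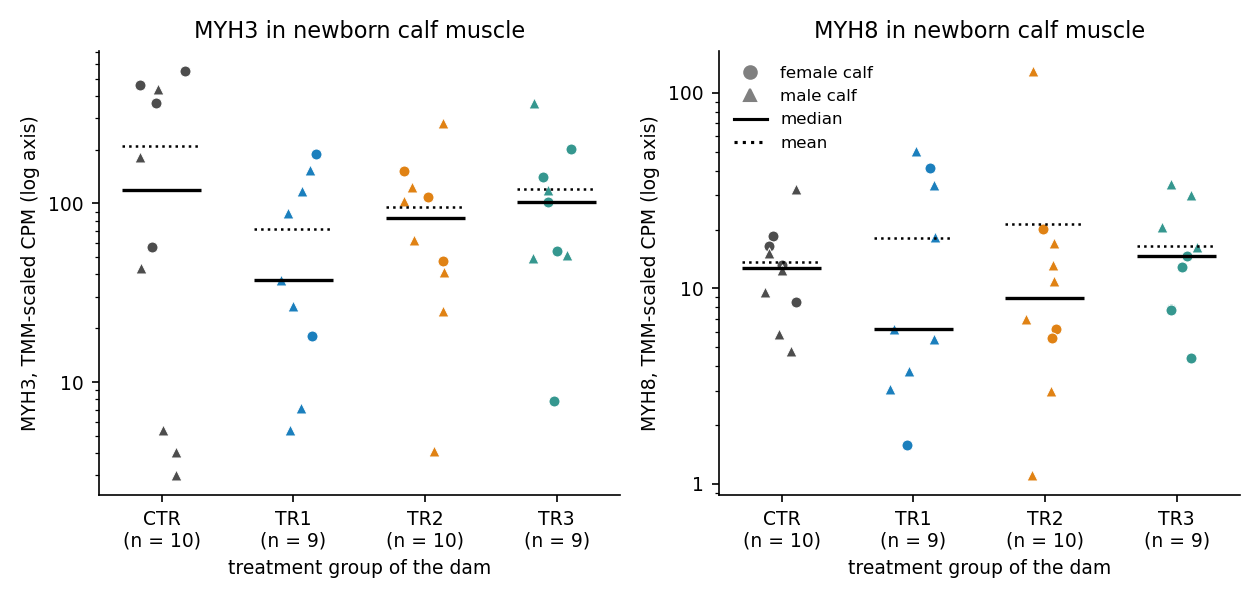
TMM-scaled CPM of MYH3 (left) and MYH8 (right) on log axes, 1 point per calf (circles female, triangles male), with the median (solid line) and the mean (dotted line) of each treatment group. The 4 groups overlap for both genes; CTR holds both the lowest MYH3 value (3.01 CPM) and the highest (551 CPM), and TR2 both the lowest MYH8 value (1.11 CPM) and the highest (130 CPM).

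The CTR calves differed most among themselves in MYH3. Their lowest level was 3.01 CPM, their median 119 CPM and their highest 551 CPM, with a mean of 210.8 ± 219.7 CPM (SD, n = 10). A group of 3 males, A2034, A2035 and A2038, were at 3.01, 4.07 and 5.40 CPM. Another 4 calves, A2075, A2088, A2091 and A2098, were at 364, 438, 461 and 551 CPM. Between these ends stood A2042 at 43.3 CPM, A2041 at 56.9 CPM and A2096 at 181 CPM. Of the 5 calves above 300 CPM in the whole study, 4 were CTR calves, and of the 7 calves below 10 CPM, 3 were CTR calves.

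In TR1 the MYH3 level was lowest in A2040 (5.38 CPM), had a median of 37.0 CPM and was highest in A2047 (190 CPM), with a mean of 71.4 ± 68.6 CPM (SD, n = 9). In TR2 it was lowest in A2083 (4.09 CPM), had a median of 82.3 CPM and was highest in A2068 (283 CPM), with a mean of 95.02 ± 81.1 CPM (SD, n = 10). In TR3 it was lowest in A2073 (7.79 CPM), had a median of 102 CPM and was highest in A2020 (366 CPM), with a mean of 121 ± 109 CPM (SD, n = 9). Every group thus held at least 1 calf below 10 CPM and at least 3 above 100 CPM, and no pair of groups was free of overlap. The 7 calves below 10 CPM ended with A2073 at 7.79 CPM, and the next calf up was A2052 at 18.01 CPM.

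The study asked how the trimester of maternal Se-yeast changed calf muscle RNA, each supplemented group being set against CTR. For MYH3 the fitted log2 fold change was negative in all 3 comparisons, and none passed the test. In TR1 vs. CTR it was -1.41 (SE 0.81, 95% interval -3.06 to 0.23, edgeR adjusted p = 1.00), and 7 of 9 TR1 calves were below the CTR median. In TR2 vs. CTR it was -1.03 (SE 0.77, interval -2.60 to 0.53, edgeR adjusted p = 0.708), with 7 of 10 TR2 calves below the CTR median. In TR3 vs. CTR it was -0.92 (SE 0.84, interval -2.63 to 0.79, edgeR adjusted p = 1.00), with 6 of 9 TR3 calves below it. All 3 values rest on the same 10 control calves, so their common sign is not 3 separate observations. Each interval runs from a more than 4-fold lower level to a level above CTR.

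At an adjusted p of 0.05 edgeR called 0 of 12964 genes (0%) in each of these comparisons, while DESeq2 called 0, 1 and 0. At an unadjusted p of 0.05 edgeR called 331 genes (2.55%) in TR1 vs. CTR, 1081 (8.34%) in TR2 vs. CTR and 175 (1.35%) in TR3 vs. CTR, and neither MYH3 nor MYH8 was among them. For MYH3 in TR1 vs. CTR the unadjusted edgeR p was 0.0895, and without CTR calf A2034 it was 0.0480, with an adjusted p that stayed at or above 0.989 whichever calf was left out.

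The size and the sign of the MYH3 differences depended on the scale on which calves were averaged. The fitted fold changes follow mean counts, and the CTR mean of 210.8 CPM was carried by the 4 calves above 300 CPM. On the log2 scale, where each calf counts by its order of magnitude, the CTR mean was 6.02 ± 3.00 (SD, n = 10), TR1 stood at 5.29 ± 1.88 (n = 9), TR2 at 5.94 ± 1.69 (n = 10) and TR3 at 6.32 ± 1.58 (n = 9). The difference of mean log2 CPM was then -0.73 for TR1 vs. CTR and -0.08 for TR2 vs. CTR, and it turned to 0.30 for TR3 vs. CTR (exact permutation p = 0.786, two-sided). Leaving out the single CTR calf A2088 moved the 3 edgeR log2 fold changes of MYH3 to -0.92, -0.58 and -0.52. Without TR3 calf A2020, the TR3 vs. CTR value was -1.39.

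**Figure D2:**
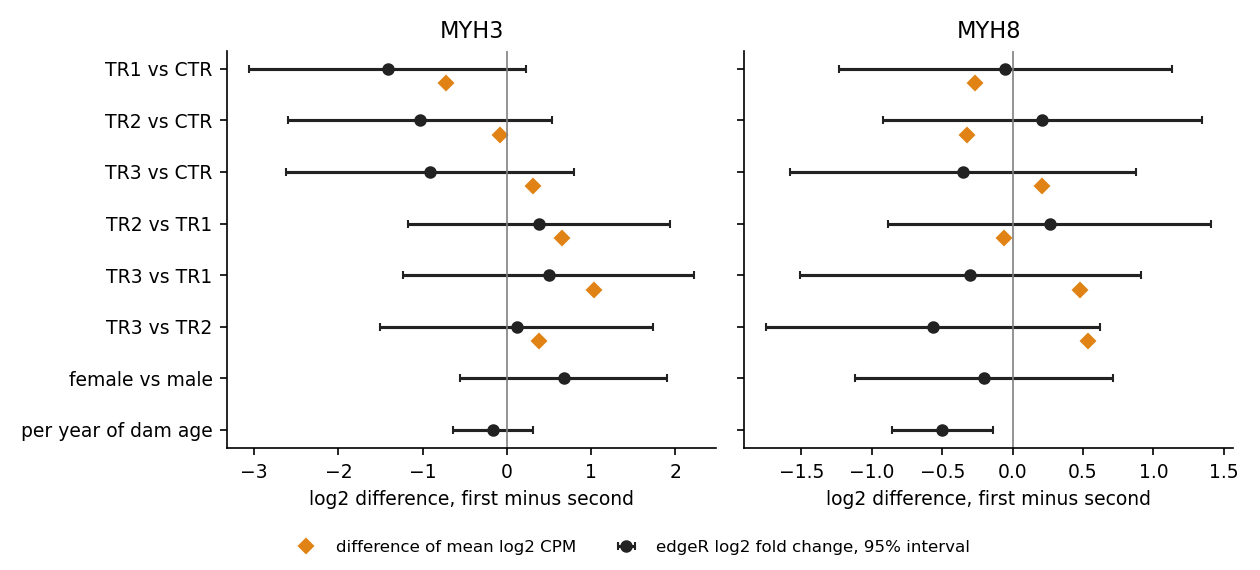
Log2 differences of MYH3 (left) and MYH8 (right) for the 6 pairs of groups, for female vs. male calves and per year of dam age: black points are edgeR log2 fold changes with 95% intervals, and orange diamonds are differences of mean log2 CPM without covariates, drawn for pairs of groups only. Every group interval spans 0, and for MYH3 in TR3 vs. CTR the edgeR value (-0.92) and the diamond (0.30) lie on opposite sides of 0.

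Between the supplemented groups, which share no CTR calves, MYH3 did not differ beyond its spread. The fitted log2 fold change was 0.38 (SE 0.77) in TR2 vs. TR1, 0.50 (SE 0.85) in TR3 vs. TR1 and 0.12 (SE 0.80) in TR3 vs. TR2, with edgeR adjusted p from 0.958 to 0.974. Of the TR2 calves, 8 of 10, and of the TR3 calves, 8 of 9, were above the TR1 median of 37.0 CPM. The sign of each of these differences rested on single calves: without A2068, TR2 vs. TR1 was -0.0083, and without A2020, TR3 vs. TR1 was -0.10 and TR3 vs. TR2 was -0.47. Without A2068, TR3 vs. TR2 was 0.63. In these comparisons edgeR called 0 genes (0%) at an adjusted p of 0.05, DESeq2 also called 0, and 6.15%, 5.85% and 9.46% of genes had an unadjusted edgeR p under 0.05. Ordered by median, the groups ran TR1, TR2, TR3 and CTR, and by mean log2 CPM they ran TR1, TR2, CTR and TR3, with no pair of neighbours differing beyond its spread. A test of any difference among the 4 groups gave an edgeR adjusted p of 0.914 for MYH3, in a test where 6.09% of genes had an unadjusted p under 0.05 and 0 passed the adjusted threshold with either tool.

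MYH8, the isoform that follows MYH3 in a maturing fibre, showed no group order that held across scales. In CTR its level was lowest in A2035 (4.79 CPM), had a median of 12.8 CPM and was highest in A2088 (32.1 CPM), with a mean of 13.7 ± 7.89 CPM (SD, n = 10). In TR1 it was lowest in A2052 (1.58 CPM), had a median of 6.24 CPM and was highest in A2092 (50.4 CPM), with a mean of 18.2 ± 18.8 CPM (SD, n = 9). TR1 fell into 5 calves at 6.24 CPM or less and 4 calves at 18.4 CPM or more. In TR2 it was lowest in A2083 (1.11 CPM), had a median of 8.94 CPM and was highest in A2023 (130 CPM), with a mean of 21.4 ± 38.5 CPM (SD, n = 10). The next highest TR2 calf, A2079, was at 20.2 CPM. In TR3 it was lowest in A2073 (4.41 CPM), had a median of 14.7 CPM and was highest in A2020 (34.4 CPM), with a mean of 16.6 ± 10.2 CPM (SD, n = 9). All pairs of groups overlapped, and 17 of 38 calves were below 10 CPM, between 3 and 5 in each group.

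The fitted log2 fold change of MYH8 was -0.05 (SE 0.58) in TR1 vs. CTR, 0.21 (SE 0.56) in TR2 vs. CTR and -0.35 (SE 0.60) in TR3 vs. CTR, with edgeR adjusted p of 1.00, 0.925 and 1.00. The interval was -1.23 to 1.13 for TR1, -0.92 to 1.34 for TR2 and -1.58 to 0.87 for TR3. Between supplemented groups the values were 0.26 (TR2 vs. TR1), -0.30 (TR3 vs. TR1) and -0.56 (TR3 vs. TR2), with edgeR adjusted p from 0.755 to 0.965. The test of any difference among the 4 groups gave an edgeR adjusted p of 0.982 for MYH8. In TR1 vs. CTR and in TR3 vs. CTR the fitted values had the opposite sign to the plain means of 18.2 and 16.6 CPM against 13.7 CPM, and without covariates they were 0.41 and 0.28. Leaving out single calves also turned the sign of MYH8 differences. Without A2023, TR2 vs. CTR was -0.48, TR2 vs. TR1 was -0.66 and TR3 vs. TR2 was 0.45. Without A2092, TR1 vs. CTR was -0.68 and TR3 vs. TR1 was 0.21, and without A2088, TR1 vs. CTR was 0.20.

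MYH3 and MYH8 rose and fell together across calves. Over the 38 calves the Pearson r of their log2 CPM was 0.583 (permutation p = 0.00014, adjusted over 7 relations 0.00098) and Spearman's rho was 0.605 (permutation p = 0.00012, adjusted 0.00084). Without A2023 and A2083, the 2 calves farthest from the median of MYH8, r was 0.567. Calves of a single group gave 0.798 (CTR), 0.604 (TR1), 0.690 (TR2) and 0.577 (TR3). Total counts were weakly related to either gene (r = -0.174 for MYH3 and -0.302 for MYH8, adjusted permutation p = 0.397 and 0.114).

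The low ends of the 2 genes matched more than the high ends. Of the 10 calves lowest in MYH3 and the 10 lowest in MYH8, 7 were the same calves (A2029, A2035, A2038, A2052, A2073, A2083 and A2100). Of the 10 highest in each, 4 were the same (A2020, A2047, A2075 and A2088). These are counts over the calves that gave the correlation, with no test of their own. TR2 calf A2023 had by far the highest MYH8 level, 130 CPM, with a MYH3 level of 103 CPM.

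**Figure D3:**
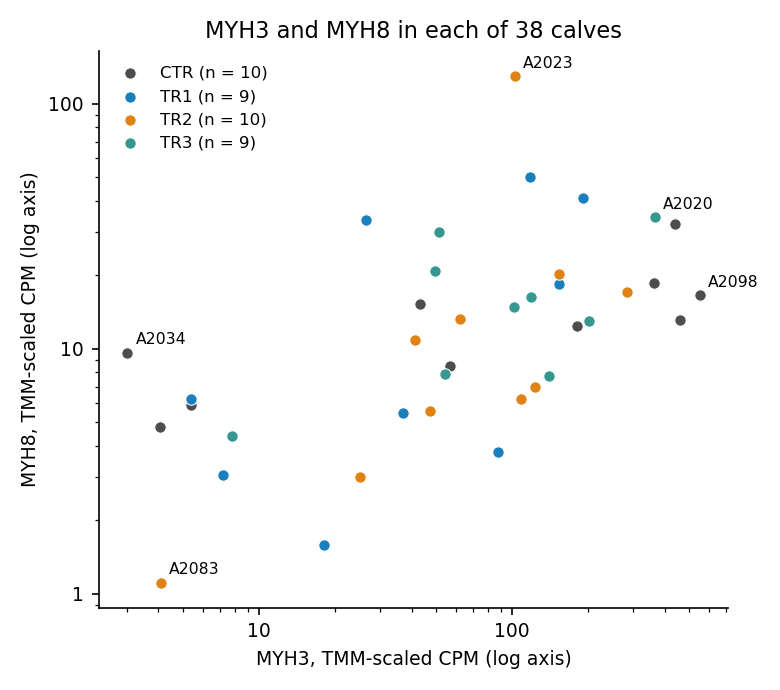
MYH8 against MYH3 in TMM-scaled CPM, both axes log, 1 point per calf, coloured by treatment group. Calves low in one gene tend to be low in the other (Pearson r of log2 CPM 0.583 over 38 calves), and A2023 (130 CPM MYH8) and A2083 (1.11 CPM MYH8) stand at the top and the bottom.

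The balance between the 2 genes also varied from calf to calf rather than by group. The log2 ratio of MYH3 to MYH8 counts, which needs no scaling between libraries, ran from -1.68 in CTR calf A2034 to 5.13 in CTR calf A2091. Its mean was 2.43 ± 2.43 in CTR (SD, n = 10), 2.00 ± 1.66 in TR1 (n = 9), 2.71 ± 1.37 in TR2 (n = 10) and 2.54 ± 1.30 in TR3 (n = 9). The 6 pairs of groups gave exact two-sided permutation p from 0.316 to 0.912, all 0.912 after adjustment over the 6.

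The adult fast heavy chains were measured in the same libraries, from neighbouring genes with closely similar coding sequence. MYH1, MYH2 and MYH4 together had 183777 to 684507 counts per calf, a 3.72-fold span. Set against them, MYH3 ran from 13.0 counts per 100000 adult counts in A2083 to 1792 in A2091, a 138-fold span, and MYH8 ran from 3.52 in A2083 to 642 in A2023, a 182-fold span. The summed adult level had an r of 0.351 with MYH3 (adjusted permutation p = 0.0693) and of 0.159 with MYH8 (adjusted permutation p = 0.397). Without A2033 and A2052, the 2 calves farthest from the median of the adult level, these were 0.350 and -0.010. Within groups, r for MYH3 was between 0.036 in TR3 and 0.549 in TR1, and for MYH8 it was between -0.613 in TR3 and 0.541 in TR1. How much of the MYH8 and MYH3 counts could come from reads of the adult paralogs was not tested.

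Of the adult isoforms, MYH1 had an r of 0.469 with MYH3 and 0.169 with MYH8, and its level ran from 615 to 38520 CPM. MYH4 had an r of 0.378 with MYH3 and 0.313 with MYH8, and its level ran from 0.158 to 398 CPM. MYH2, at 8404 to 27313 CPM, had an r of 0.107 with MYH3 and -0.003 with MYH8. MYH6, the cardiac alpha heavy chain, had an r of -0.311 with MYH3 and 0.057 with MYH8. The non-muscle and smooth muscle chains MYH10, MYH11 and MYH14 and the ancient sarcomeric gene MYH15 had r with MYH3 of 0.142, -0.140, -0.366 and -0.169, and with MYH8 of 0.174, -0.206, -0.278 and 0.291. These values describe the same 38 libraries, which share their scaling, and carry no test. None of the 8 other heavy chain genes passed the adjusted threshold in a pair of groups, and 1 of the 8, MYH10, had an unadjusted edgeR p under 0.05 in TR2 vs. CTR and in TR2 vs. TR1, where 8.34% and 6.15% of all genes did.

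The r of 6 lists of muscle genes with MYH3 and MYH8 are given as a description, with no test. Only genes that the study's supplementary tables pair with a symbol could be listed; those are genes the study called in these calves or counted as regulators, so the lists are not independent evidence. In the immature fibre list, 3 of 8 members had an r over 0.5 with MYH3 and 2 of 8 with MYH8. Of all tested genes, 0.687% and 0.255% did. Those shares cover genes with or without a symbol, and the share among genes with a symbol was not computed. ACTC1, the cardiac alpha-actin that foetal skeletal muscle also makes, had an r of 0.620 with MYH3 and 0.583 with MYH8. NES, the intermediate filament protein nestin of immature muscle cells, had 0.638 and 0.549. NCAM1, the neural cell adhesion molecule of developing and denervated fibres, had 0.594 and 0.272. MYL6B, a myosin light chain of embryonic and slow muscle, went the other way with MYH3 (-0.234), and had 0.172 with MYH8.

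The immature fibre list had a median r of 0.367 with MYH3 and 0.314 with MYH8, beside -0.0076 and -0.0030 for all genes. The fast fibre list had nearly the same medians, 0.361 and 0.333, and 15 of its 15 members had a positive r with MYH3 and 12 of 15 with MYH8. The share of all genes with a positive r was not computed. The r of its members ran from 0.030 to 0.494 with MYH3 and from -0.007 to 0.413 with MYH8. ACTA1, CKM and MYLPF of this list also belong to the muscle fibre markers, so the list is not separate from them. Among the fast fibre members, the fast troponin subunits TNNT3 and TNNI2 had r of 0.457 and 0.481 with MYH3 and of 0.413 and 0.382 with MYH8, while MYL1, a fast light chain, had 0.289 and 0.404. The slow or cardiac type list had medians of 0.049 and 0.237. It was split: MYL3, the slow light chain, had an r of 0.496 with MYH3, and ATP2A2, the slow fibre calcium pump, had -0.497. MYOZ2, a Z-disc protein of slow fibres, had 0.019 with MYH3 and 0.270 with MYH8. CASQ2, the slow and cardiac calsequestrin, had an r of 0.501 with MYH8.

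The genes that set up muscle fibres went both ways with MYH3 and MYH8. In the list of myogenic regulators and satellite cells the r ran from -0.470 to 0.552 with MYH3 (median 0.073) and from -0.248 to 0.337 with MYH8 (median 0.124). PAX7, the satellite cell marker, had r of 0.065 and 0.327, MYF5 had 0.073 and 0.316, MYOD1 had 0.151 and 0.124, and MYOG, which drives terminal differentiation, had 0.132 and 0.245. MYF6, the regulatory factor of maturing fibres, had 0.359 and 0.316. The highest r of this list with MYH3 was that of MEF2C, a transcription factor of sarcomere genes, which had 0.337 with MYH8, and the lowest was that of TBX15. The list named for myosin folding and the thick filament had medians of 0.248 and 0.236. It also holds genes of other parts of the sarcomere, so these medians do not stand for the thick filament alone. UNC45B, a chaperone of myosin, had 0.307 with MYH3 and 0.236 with MYH8, and SMYD1 had 0.324 and 0.212. KLHL40, a stabiliser of thin filament proteins, had 0.167 and 0.089. MKI67 and TOP2A, the dividing cell genes, had r between 0.053 and 0.093 and levels no higher than 4.70 CPM. NCAM1, TNNT3, TNNI2, MYL1, ATP2A2, CASQ2, MYOG, MYF6, MEF2C and TBX15 were picked out here after their values were seen. In the 6 pairs of groups, for female vs. male calves and per year of dam age, 0 members of the 6 lists passed the adjusted threshold in edgeR. Against CTR, the median fitted change of the 15 fast fibre genes was -0.22 log2 units for TR1, -0.06 for TR2 and 0.06 for TR3, and that of the 8 immature fibre genes was -0.17, -0.14 and -0.06, with all genes at 0.0016, 0.0075 and -0.0093. These medians carry no SE and no test. The fast fibre list shares ACTA1, CKM and MYLPF with the muscle fibre markers, whose median sum was 64206 CPM in TR1 and 83212 CPM in CTR. A link between them was not tested.

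**Figure D4:**
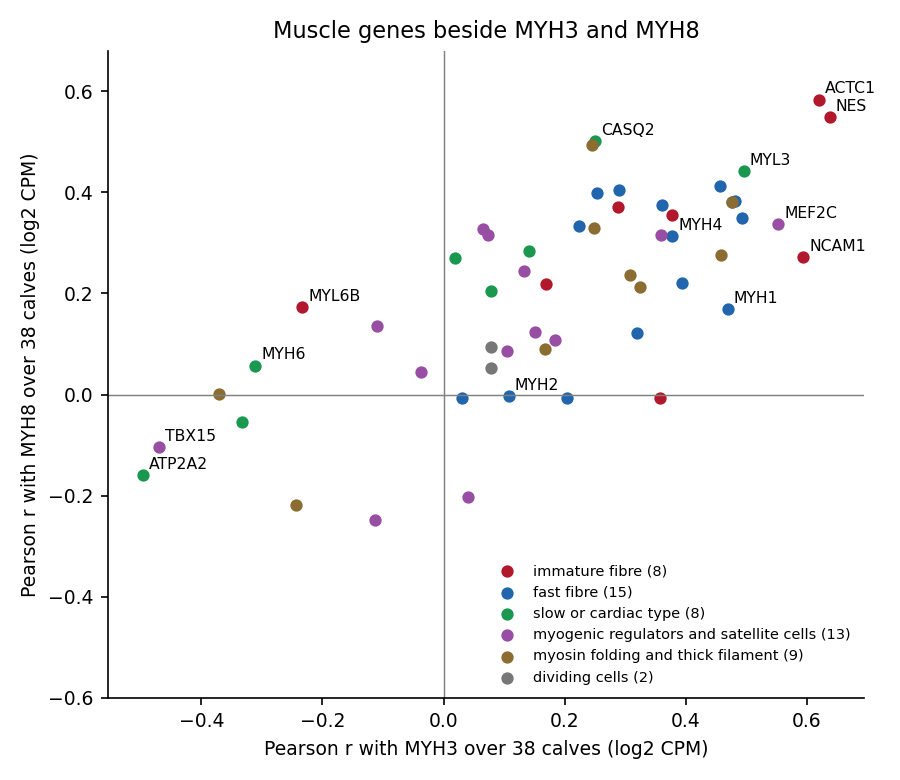
Pearson r with MYH3 (horizontal) and with MYH8 (vertical) over 38 calves in log2 CPM, 1 point per member of 6 gene lists, coloured by list; MYOM2 belongs to 2 lists. ACTC1 (0.620 and 0.583) and NES (0.638 and 0.549) stand farthest to the upper right, and ATP2A2 (-0.497 and -0.160) and TBX15 (-0.470 and -0.104) farthest to the left.

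Among the 2592 tested genes with a symbol and a mean of at least 1 CPM, the one most like MYH3 over the 38 calves was ALDH18A1 (r = 0.735), the enzyme that starts proline synthesis from glutamate. It was followed by ANKRD1 (0.689), a titin-binding protein of stretched muscle, NES (0.638), MACF1 (0.633), a linker of microtubules and actin, MGC138914 (0.632), KIAA1671 (0.631), ACTC1 (0.620) and ARHGAP23 (0.613). The rank correlation was lower for ANKRD1 (0.545) and ALDH18A1 (0.632) and higher for NES (0.690) and ACTC1 (0.682). The genes most opposed to MYH3 were PPP3CC (-0.692), a catalytic subunit of calcineurin, TSC22D1 (-0.687), TMEM140 (-0.674) and ECHDC3 (-0.637). With group means removed, these 12 values moved by at most 0.03.

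For MYH8 the most alike was RNF207 (0.628), followed by MYH3 (0.583), ACTC1 (0.583), SRPK3 (0.572), a muscle kinase of splicing factors, NES (0.549), POLE4 (0.549), PPA1 (0.528), a pyrophosphatase, and EHBP1L1 (0.528). The most opposed were POPDC3 (-0.623), a Popeye protein of striated muscle membranes, ZNF853 (-0.533), FOXO4 (-0.532), a forkhead transcription factor, and ARHGDIB (-0.528). ACTC1 and NES thus stood in the first 8 for both genes. Among all tested genes, with or without a symbol, MYH8 ranked 22nd for MYH3 and MYH3 ranked 7th for MYH8. These are descriptions over 38 calves that share library scaling, and genes are not independent replicates. ACTC1 itself ranged from 4.95 to 2272 CPM and NES from 38.2 to 315 CPM.

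Over all calves, the marker sums of other cell types had r between -0.189 (leukocyte) and 0.141 (fibroblast) with MYH3 and between -0.262 (endothelium) and 0.225 (fibroblast) with MYH8. The muscle fibre sum had an r of 0.205 with MYH3 and 0.312 with MYH8. Among the fibroblast markers, POSTN had an r of 0.396 with MYH3 and 0.417 with MYH8. COL1A1 had 0.191 and 0.283, and COL3A1 had 0.076 and 0.136. Among calves of 1 group some lists changed sign: for the leukocyte markers with MYH3 r was -0.781 in CTR and 0.624 in TR1, and for the smooth muscle markers it was 0.637 in CTR and -0.820 in TR1, while for the fibroblast markers it stayed between 0.077 and 0.254. The lists given here by group were picked after their values were seen. The part of the marker lists in the MYH3 and MYH8 levels was not tested. In a biopsy, fewer fibres that make a myosin and less of its RNA per fibre cannot be told apart.

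Sex and dam age, the study's covariates, were examined in the same fit. Female calves had a mean MYH3 level of 175 ± 168 CPM (SD, n = 14) and male calves 97.4 ± 116 CPM (SD, n = 24), and 11 of 14 females were above the male median of 50.2 CPM. The log2 fold change of MYH3 was 0.67 (SE 0.61, edgeR adjusted p = 0.905), so it did not pass the test, in a comparison where edgeR called 4 genes (0.0309%) and 6.61% had an unadjusted p under 0.05. The mean log2 CPM of females exceeded that of males by 3.42 in CTR, by 0.75 in TR1 and by 0.84 in TR2. The TR3 difference was -0.64. Whether these differ from each other was not tested. In CTR, females A2075, A2091 and A2098 had high numbers in their names, which MYH3 also followed there. The low-numbered female A2041 was at 56.9 CPM, and the high-numbered males A2088 and A2096 were at 438 and 181 CPM. Sex and number were not told apart in CTR. For MYH8 the log2 fold change of females vs. males was -0.21 (SE 0.45, edgeR adjusted p = 0.974), and without A2092 it was 0.016.

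The fitted slope of MYH8 on dam age was negative, but it did not hold after adjustment over all genes. The MYH8 level by dam age had a median of 29.97 CPM at 5 years (n = 9, range 1.58 to 130 CPM), 8.51 CPM at 6 years (n = 13, 1.11 to 20.7 CPM), 15.2 CPM at 7 years (n = 5, 12.9 to 50.4 CPM), 9.38 CPM at 8 years (n = 8, 3.00 to 20.2 CPM) and 4.79 CPM at 9 years (n = 3, 3.79 to 6.24 CPM). It was -0.50 log2 units per year (SE 0.18, 95% interval -0.86 to -0.14, unadjusted edgeR p = 0.00825), but the edgeR adjusted p over all genes was 0.993, and 3.36% of genes had an unadjusted p under 0.05 with 0 called by edgeR or DESeq2 after adjustment. Without A2023, the slope was -0.24 (unadjusted edgeR p = 0.184), and without A2092 it was -0.60. The plain slope of log2 CPM among calves of 1 group was -0.08 (CTR), -0.29 (TR1), -0.45 (TR2) and -0.40 (TR3). For MYH3 the fitted slope was -0.17 (SE 0.24, edgeR adjusted p = 0.993).

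**Figure D5:**
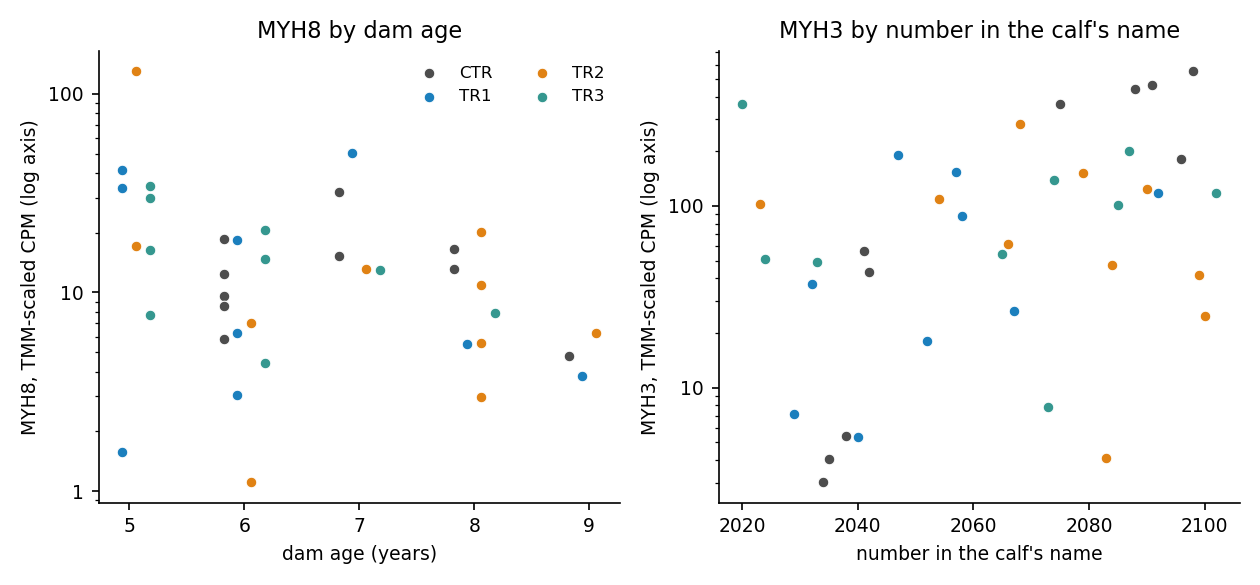
MYH8 against dam age in years (left, points shifted sideways by group) and MYH3 against the number in the calf's name (right), TMM-scaled CPM on log axes, 1 point per calf, coloured by treatment group. The 3 calves of 9-year dams lie between 3.79 and 6.24 CPM of MYH8, and the CTR calves from A2075 to A2098 lie between 181 and 551 CPM of MYH3, while those from A2034 to A2042 lie between 3.01 and 56.9 CPM.

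The calves carry numbered names, and what the number stands for is not given in the sources used here. Within CTR, MYH3 followed it closely: the 5 CTR calves from A2034 to A2042 had 3.01 to 56.9 CPM, and the 5 from A2075 to A2098 had 181 to 551 CPM (r = 0.896 within the 10 calves). In TR1, TR2 and TR3, the r of MYH3 with the number was 0.522, -0.370 and -0.033. Over all calves it was 0.378 (adjusted permutation p = 0.0665), and 0.509 without A2020 and A2023. For MYH8 the r was 0.687 (CTR), 0.608 (TR1), -0.700 (TR2) and -0.593 (TR3), and -0.077 over all calves (adjusted permutation p = 0.644). With the number added as a linear term, the log2 fold change of MYH3 moved from -1.41 to -1.04 in TR1 vs. CTR. It moved from -1.03 to -0.80 in TR2 vs. CTR and from -0.92 to -0.45 in TR3 vs. CTR. Between supplemented groups it moved from 0.38 to 0.23 in TR2 vs. TR1 and from 0.50 to 0.59 in TR3 vs. TR1. In TR3 vs. TR2 it moved from 0.12 to 0.35. No MYH3 or MYH8 comparison between groups passed the test (edgeR adjusted p from 0.760 to 1.00).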

How the data were processed

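The authors sequenced strand-specific, poly-A enriched libraries, aligned the reads to ARS-UCD1.2 with STAR 2.7.3a and deposited raw counts per gene (Ensembl release 100) for 38 calves. Which strand column was kept is not given in the sources used here. Groups, sex and dam age came from the labels. Counts were filtered with filterByExpr (12964 genes kept), scaled by TMM and tested with edgeR 4.0.16 (quasi-likelihood F-test on dam age, sex and group; Benjamini-Hochberg adjustment over all genes tested; threshold 0.05). Log2 CPM used a prior count of 2. DESeq2 1.42.0, other normalizations, filters and covariates, and leaving out each calf were alternatives; the log2 ratio of mean CPM was added after seeing the data. Ratios were compared by exact permutation tests and correlations by 100000 permutations. The edgeR test of TR1 vs. CTR was also tried on counts simulated from the fitted spread of these data. Gene symbols came from the study's supplementary tables (2892 IDs), whose values were not used. Beside MYH3 and MYH8, named genes were the other heavy chains, the first 3 members of each list, and the 8 most and 4 least alike by Pearson r; others named are said to be picked afterwards. MYH3, MYH8 and the lists were chosen with earlier results of these data known. Each calf is a separate animal, and no 2 calves of a group agreed within sampling noise (smallest chi-square per degree of freedom 16.5). The slow heavy chain MYH7 was not analysed here.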

Additional observations from a re-analysis of the deposited data

Results flagged for a closer look

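In 12 groups of values (MYH3, MYH8 and their log2 ratio in each treatment group), a calf was looked for whose gap to the next calf took up an unusual share of the range of its group, which chance gives in about 1 of 20 groups when values are normally distributed; CPM values are skewed to the high side, where large top gaps are more common. In TR2, calf A2023 stood apart with a MYH8 level of 130 CPM, the next calf being at 20.2 CPM, and with a log2 ratio of MYH3 to MYH8 of -0.34, the next being 1.88. Also in TR2, calf A2068 had the highest MYH3 level (283 CPM, next 152 CPM), just past the limit. In CTR, calf A2088 had the highest MYH8 level (32.1 CPM, next 18.5 CPM). In log2 CPM none of these 3 levels passed the limit of 0.466 of the range, the gaps being 0.399 for A2023, 0.147 for A2068 and 0.293 for A2088.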

How the results depend on the processing

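No MYH3 or MYH8 comparison passed the adjusted threshold in the 854 alternatives with an adjusted p. Another 36, on other scales, had none, and the lowest unadjusted p among those with an exact permutation test was 0.0857. Of the 796 alternatives with a direction 754 kept it. Most of the 796 only left out 1 calf, so this share does not measure how directions held under other processing. The cause of each turn in sign was not tested. As differences of mean log2 CPM, MYH3 was 0.30 in TR3 vs. CTR, and MYH8 was -0.32 in TR2 vs. CTR, 0.21 in TR3 vs. CTR, -0.058 in TR2 vs. TR1, 0.48 in TR3 vs. TR1 and 0.53 in TR3 vs. TR2. On DESeq2's variance-stabilized scale the same 6 differences were 0.20, -0.19, 0.19, -0.053, 0.33 and 0.39. As log2 ratios of mean CPM, an alternative chosen after seeing the data, MYH8 was 0.41 in TR1 vs. CTR and 0.28 in TR3 vs. CTR, and without covariates it was also 0.41 and 0.28. With only the calves compared, these were 0.22 and 0.070, and MYH3 in TR3 vs. TR2 was -0.29. With dam age as a factor, MYH8 in TR2 vs. CTR was -0.066 and MYH3 in TR3 vs. TR2 was -0.078. With dam age alone, the MYH3 slope was 0.049.

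Leaving out each calf in turn moved MYH8 from -0.68 to 0.20 in TR1 vs. CTR, from -0.48 to 0.45 in TR2 vs. CTR, from -0.66 to 0.87 in TR2 vs. TR1, from -0.55 to 0.21 in TR3 vs. TR1, from -0.71 to 0.45 in TR3 vs. TR2 and from -0.45 to 0.016 in females vs. males. It moved MYH3 from -0.0083 to 0.64 in TR2 vs. TR1, from -0.10 to 0.80 in TR3 vs. TR1 and from -0.47 to 0.63 in TR3 vs. TR2. MYH3 kept its sign against CTR without any 1 calf, from -1.65 to -0.92 in TR1, from -1.35 to -0.58 in TR2 and from -1.39 to -0.52 in TR3. The log2 ratio of MYH3 to MYH8 ran from -0.18 to 0.61 in TR2 vs. CTR, from -0.35 to 0.40 in TR3 vs. CTR and from -0.51 to 0.049 in TR3 vs. TR2.

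Counts of genes called were 0 or 1 in TR1 vs. CTR, TR2 vs. CTR and per year of dam age without any 1 calf, and 4 to 8 in females vs. males. With no filter on low counts they were 2 in TR3 vs. CTR, 11 in TR3 vs. TR1, 4 in TR3 vs. TR2, 13 for any difference among the 4 groups, 11 in females vs. males and 3 per year of dam age. DESeq2 called 1 in TR2 vs. CTR, the fit with the calf number 1 in TR1 vs. CTR, and the fit without sex 1 per year of dam age. MYH3 and MYH8 were in none of these counts. Every calf had at least 45 MYH3 counts and 16 MYH8 counts, and counting error was widest at these low ends of both genes.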
